A study of Mus musculus with 12 samples.

Results

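The genes described here are 48 antiviral interferon-stimulated genes, followed in B16F10 cells, a mouse melanoma line. They were found by matching the Ensembl identifiers of the deposited count table to the 48 symbols, all of which matched, out of 54232 genes in the table. RNA was sequenced in 12 libraries of 4 groups with 3 libraries each. The labels give the strain as C57BL/6 and the tumor cells were injected under the skin of the back. The immunotherapy consisted of TNFα, CD40L and an antibody to the melanocyte protein TRP1, although the study's methods name an anti-CD40 antibody in place of CD40L. WT 1, WT 2 and WT 3 were untreated cells in culture. ITF1, ITM and Rel are lines grown to confluency from cells sorted out of tumors that had relapsed after immunotherapy in mice. The labels give the age of the mice as 6 weeks, whereas the study's methods give an older age, so the age is uncertain here. Tumor 1, Tumor 3 and Tumor 4 were sorted from such relapsed tumors with the RNA taken at once, as the labels have it, whereas the study also describes its sorted cells as taken a few days after immunotherapy, so that the stage of these tumors is uncertain here. Lyso 1, Lyso 2 and Lyso 3 were cultured cells given concentrated granules (called lysosomes in the sample labels) secreted by activated splenic CD8+ T cells. The labels give 48 hours for that incubation, whereas the study's methods give a shorter time for the RNA samples, so its length is uncertain here. The study describes the granules both as a culture supernatant concentrated on a filter and as isolated on a density gradient and washed, and which of these was used for the RNA libraries is uncertain here. The number of mice behind the Tumor libraries and the relapsed lines was not given in the sources used here.

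Interferons are secreted proteins that bind receptors on the cell surface. Type I and type III interferons act through receptor-bound kinases and a transcription factor complex that binds the interferon-stimulated response element (ISRE), while interferon gamma acts mainly through the gamma-activated site (GAS). The genes switched on include sensors of foreign RNA and DNA, enzymes that degrade or edit viral RNA, a ubiquitin-like modifier with its conjugation enzymes and proteins that block entry, budding or replication of viruses. Nearly every cell type, tumor cells included, can express them.

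To show what these genes carry upstream of their start sites, the 250 bases before the RefSeq start were searched on both strands for the ISRE core, spelled GAAA, then any 2 bases, then GAAA, and for the GAS pattern, spelled TTCNNNGAA. RefSeq windows (build GRCm38.p6) were matched for 38 of the 48 genes. The ISRE core was present in 10 of the 38 (26.3%), beside 3.04% of 27025 genes with such a window. The GAS pattern was present in 5 of the 38 (13.2%), namely Eif2ak2, Ifit2, Oas1a, Bst2 and Isg20, beside 7.18% of all. The genes with an ISRE core were Ifit1, Ifit3, Oas1a, Oas1g, Oas3, Isg15, Rsad2, Bst2, Ifitm2 and Trim30a, and in 1 of them, Bst2, a match overlapped a GAS match. Such a match describes the letters of the window and shows no binding. Of the windows printed 5′ to 3′ here, those of Oas3, Ifitm1 and Sp100 belong to genes that rose in the Tumor libraries, that of Trim30a had the smallest p of its family there, and those of Isg15 and Ifit3 were chosen after the matches were seen, as examples among the genes with more than 1 match, which also include Ifit1, Oas1a, Oas1g and Bst2. Capitals mark the ISRE core on either strand.
Oas3, chr5:120777660-120777909, minus strand: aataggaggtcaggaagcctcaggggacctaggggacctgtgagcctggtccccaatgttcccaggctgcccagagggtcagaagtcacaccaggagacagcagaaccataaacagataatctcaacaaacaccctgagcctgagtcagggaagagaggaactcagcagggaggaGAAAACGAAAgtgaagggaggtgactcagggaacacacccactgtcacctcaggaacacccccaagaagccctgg
Trim30a, chr7:104465194-104465443, minus strand: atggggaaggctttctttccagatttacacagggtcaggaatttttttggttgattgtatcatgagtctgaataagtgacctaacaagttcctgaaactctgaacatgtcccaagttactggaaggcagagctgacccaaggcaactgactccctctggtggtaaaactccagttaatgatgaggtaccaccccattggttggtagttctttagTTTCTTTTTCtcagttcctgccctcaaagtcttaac
Isg15, chr4:156200819-156201068, minus strand: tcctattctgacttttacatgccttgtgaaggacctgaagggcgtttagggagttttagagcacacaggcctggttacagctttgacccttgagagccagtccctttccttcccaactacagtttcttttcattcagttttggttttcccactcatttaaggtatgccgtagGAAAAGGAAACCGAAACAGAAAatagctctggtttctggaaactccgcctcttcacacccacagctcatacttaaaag
Ifit3, chr19:34583279-34583528, plus strand: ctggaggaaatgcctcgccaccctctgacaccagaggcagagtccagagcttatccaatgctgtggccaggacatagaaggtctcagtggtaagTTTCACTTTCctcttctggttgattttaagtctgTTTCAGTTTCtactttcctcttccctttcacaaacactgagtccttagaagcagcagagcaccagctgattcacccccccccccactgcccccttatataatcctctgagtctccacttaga
Ifitm1, chr7:140967826-140968075, plus strand: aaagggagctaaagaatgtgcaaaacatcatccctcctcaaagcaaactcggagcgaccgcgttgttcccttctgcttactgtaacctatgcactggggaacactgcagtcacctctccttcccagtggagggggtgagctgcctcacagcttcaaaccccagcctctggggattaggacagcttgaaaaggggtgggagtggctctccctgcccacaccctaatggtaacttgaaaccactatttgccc
Sp100, chr1:85649738-85649987, plus strand: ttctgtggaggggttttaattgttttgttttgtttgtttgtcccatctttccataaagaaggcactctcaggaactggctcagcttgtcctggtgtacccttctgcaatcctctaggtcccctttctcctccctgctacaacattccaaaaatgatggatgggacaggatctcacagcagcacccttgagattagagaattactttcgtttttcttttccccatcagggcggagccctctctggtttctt
In Oas3 the match began 75 bases before the start and in Trim30a 36 bases before it. Isg15 held 3 overlapping matches that began 78, 72 and 66 bases before the start, and Ifit3 held matches at 156 and 122 bases. The windows of Ifitm1 and Sp100 held no match to these letters, and the RefSeq start used for Ifitm1 lies inside the gene as GENCODE places it.

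Positions of genes are those of GENCODE vM21 on GRCm38. Levels are given as CPM, counts on a gene scaled to a common library total, with library sizes adjusted by TMM, and in the order WT 1, WT 2, WT 3, then ITF1, ITM, Rel, then Lyso 1 to 3, then Tumor 1, 3 and 4. Counts on genes came to 1667398 and 2350129 in WT 1 and WT 2 but 16384021 in WT 3, from 12749399 to 16402629 in the relapsed lines, from 10895611 to 12675277 in Lyso and from 3102442 to 5049496 in Tumor. A floor of 3 counts stands for 1.8 CPM in WT 1 and 0.183 CPM in WT 3. All 10 melanocyte and melanoma markers were above this floor in every library, and their CPM summed to between 19810 and 37430. Fibroblast markers summed to between 7707 and 10710 CPM in Tumor, with 10 of 10 above the floor in all 3 libraries, against 15.1 to 39.5 CPM elsewhere.

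The 48 genes together were high in Lyso, low in WT 1, WT 2 and ITM, and at intermediate levels in the other libraries. Their CPM summed to 808, 675 and 3085 in WT, 1233, 645 and 1745 in the relapsed lines, 5161, 5353 and 5415 in Lyso and 1407, 1581 and 2546 in Tumor. WT 3 therefore lay above all relapsed lines and all Tumor libraries, and only the Lyso libraries exceeded it. As a share of all gene counts the 48 genes took 0.0856% in WT 1 (95% Wilson interval 0.0813 to 0.0902), 0.068% in WT 2 (0.0648 to 0.0715) and 0.319% in WT 3 (0.317 to 0.322), intervals that cover counting error only. The Lyso libraries held 0.484% to 0.527%.

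**Figure D1:**
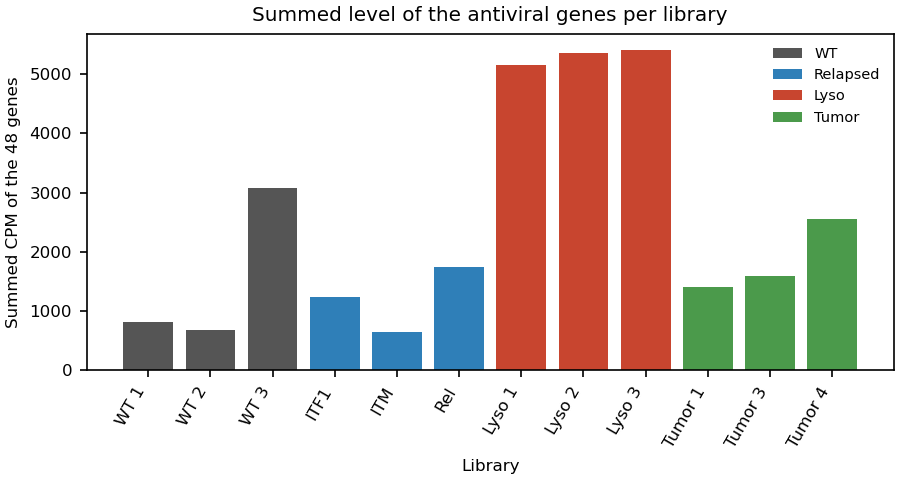
Bars give the summed CPM of the 48 genes (vertical axis, from 0) in each library (horizontal axis), coloured by group. WT 3 reached 3085 CPM, between the Tumor libraries (1407 to 2546) and the Lyso libraries (5161 to 5415), while WT 1 and WT 2 were at 808 and 675.

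The split within the untreated cells ran through nearly the whole module. On the log2 CPM scale, with a prior count of 2, WT 3 exceeded the mean of WT 1 and WT 2 by over 1 in 39 of the 47 genes kept by the expression filter, where 6.69% of all genes did so, and fell short by over 1 in 0 of them (1.75% of all genes). The median difference was 2.53, beside 0.03 over all genes tested. As this sets 1 library against a pair, no test was made. WT 3 was the highest WT library for 45 of the 47 (28.9% of all genes), the exceptions being Ifitm1 and Ifitm2. WT 1 exceeded WT 2 by over 1 in 6 genes (11.5%) and fell short of it by over 1 in 3 (9.19%).
Rtp4, a chaperone for receptor transport that is interferon-induced, showed the widest gap, 5.72 on the log2 CPM scale, with 0.566, 1.27 and 56.4 CPM. Oasl2, an OAS-like protein, followed at 5.63 with 0, 0 and 10.4 CPM. Usp18, the protease that removes ISG15 and dampens interferon receptor signaling, differed by 5.22 with 1.7, 0.422 and 40.8 CPM. In each of the 3 genes WT 1 and WT 2 were near or below the floor and WT 3 was not. Xaf1, an XIAP-binding protein, Ifit3, Sp100 and Ddx58 differed by 4.36, 4.06, 3.98 and 3.97. The smallest differences among genes with sizeable counts were those of Tor3a (0.86), Herc6 (0.69), Ifit2 (0.34) and Ifitm2 (0.03).
Depth differed between the WT libraries as well, and its part in the split was not tested. ITM, the deepest library with 16402629 gene counts, had the lowest sum of the 48 genes, 645 CPM. Myeloid markers summed to 12.5, 21.1 and 29.2 CPM in WT, T-cell markers to 6.79, 1.27 and 1.42 CPM and fibroblast markers to 30, 30.4 and 39.5 CPM. Of the 10 myeloid markers, Itgam, Adgre1, C1qa, C1qb and Tyrobp were at 0 in all 3, while Cd68 had 1.13, 11.8 and 16.6 CPM, Csf1r 9.62, 7.18 and 9.79 CPM and Lyz2 1.7, 1.27 and 2.83 CPM. The part of such cells in the split was not tested. Because WT 3 stood apart, every comparison with WT is given below against all 3 WT libraries and against each side of the split.

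**Figure D2:**
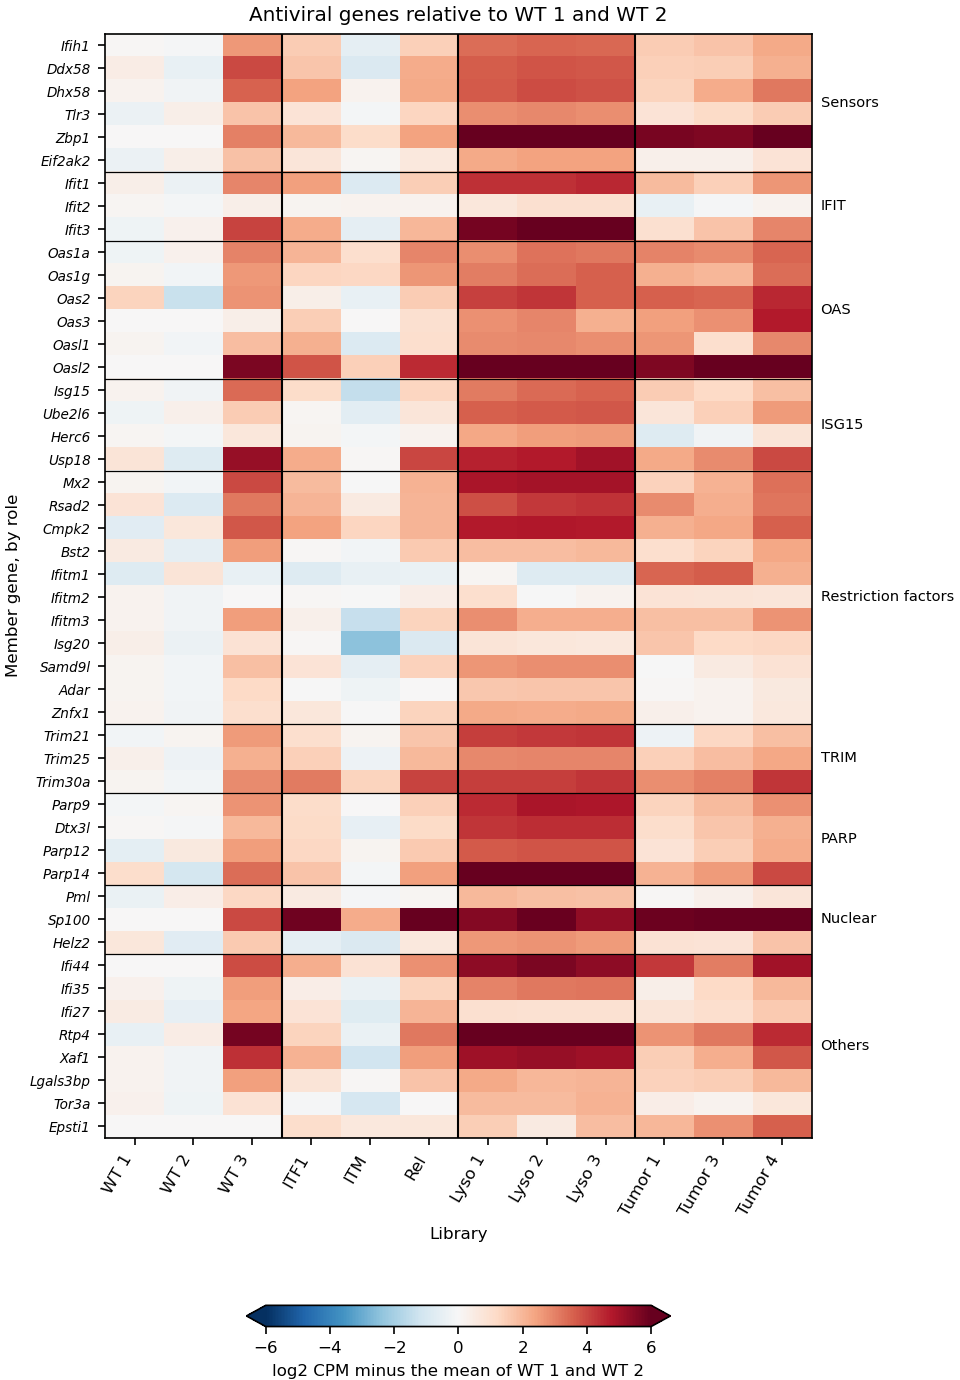
Rows are the 48 genes ordered by role and columns the 12 libraries, and colour gives the log2 CPM minus the mean of WT 1 and WT 2, limited to 6 in either direction. The WT 3 column is red for nearly all genes, while ITM resembles WT 1 and WT 2 and the 3 Lyso columns are the darkest.

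Against the 3 WT libraries, T-cell granules were accompanied by higher levels of 15 of the 47 genes tested, with 0 lower, where a call required that edgeR's quasi-likelihood test gave a Benjamini-Hochberg adjusted p under 0.05 and that the log2 fold change passed 1 in either direction. Of all 14924 genes tested, 2.43% were called higher and 0.576% lower. All 3 Lyso libraries lay above all 3 WT libraries in 36 of the 47, beside 15.8% of all genes. The median log2 fold change was 1.77, where that of all genes was 0.00. At an unadjusted p under 0.05 in either direction stood 33 of the 47, and DESeq2 called 18 higher and 0 lower. For counts at an unadjusted p and for those of DESeq2 no share of all genes is given, here or below. They describe these genes only and cannot be set against a background. The comparison asks how tumor cells respond to what T cells release. T-cell markers summed to between 16.3 and 19.2 CPM in Lyso and between 1.27 and 6.79 CPM in WT, with Gzmb at 5.1 to 6.71 CPM in Lyso and 0 in WT. Of the 12 T-cell markers, Cd8a, Cd8b1 and Gzmb were called higher. Myeloid markers summed to between 33.4 and 37.1 CPM in Lyso and between 12.5 and 29.2 CPM in WT. Of the 10, 1 was called higher, Ptprc, the leukocyte antigen CD45. It had 3.02, 3.63 and 2.19 CPM in Lyso against 0, 0.422 and 0 CPM in WT. In Lyso, Cd68 had 20.1, 19.1 and 17.2 CPM, Csf1r 11.1, 13 and 12.2 CPM and Lyz2 1.04, 1.21 and 1.7 CPM. Itgam, C1qa and C1qb were at 0 in all Lyso libraries, and Adgre1, Cd14 and Tyrobp had at most 1 count in each. Plasmacytoid dendritic markers summed to between 87.4 and 91.5 CPM in Lyso and between 33.4 and 43 CPM in WT. The rise was that of Irf8, with 51.8, 54.9 and 54.3 CPM in Lyso against 0, 0 and 0.059 CPM in WT. Tcf4 had 35.2, 36.2 and 36.8 CPM in Lyso against 41.9, 33.4 and 39.5 CPM in WT. In Lyso, Siglech had 1, 0 and 0 counts, Ccr9 0, 2 and 0 counts and Cox6a2 4, 2 and 2 counts. The part of such cells in the Lyso values was not tested. Here and in Tumor, the RNA of another cell type and a change within the tumor cells cannot be told apart from the level of a gene alone, nor can fewer cells of a type be told from less RNA per cell.

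Among the sensors, 3 of 6 rose in Lyso. Zbp1, a sensor of Z-form nucleic acid that can trigger necroptosis (ENSMUSG00000027514, chr2:173206612-173218923), had 0, 0 and 1.53 CPM in WT, 0.614, 0.24 and 0.937 CPM in the relapsed lines, 70.7, 68.3 and 63.5 CPM in Lyso and 11.1, 10.1 and 41.2 CPM in Tumor. It was nearly silent in WT and in the relapsed lines, and every Lyso and Tumor library was above them. The log2 fold change was 5.91 (SE 0.68, edgeR adjusted p = 0.000425), and against WT 1 and WT 2, where no count was seen, Lyso was at least 92.8-fold higher by the floor of 3 counts over both libraries. Tlr3, the endosomal receptor for double-stranded RNA, had 10.8, 18.2 and 45.5 CPM in WT and 99.5, 103 and 99.3 CPM in Lyso, a log2 fold change of 1.84 (SE 0.41, edgeR adjusted p = 0.023). Eif2ak2, which encodes the kinase PKR that halts translation, rose from 28.3, 46.4 and 123 to 175, 193 and 192 CPM, just inside the threshold (edgeR adjusted p = 0.0499). The cytosolic RNA helicases behaved differently with respect to WT 3. Ddx58, which encodes RIG-I, had 15.3, 8.02 and 177 CPM in WT, 35.2, 5.93 and 53.2 CPM in the relapsed lines, 141, 152 and 151 CPM in Lyso and 29.9, 31.2 and 50.1 CPM in Tumor. Its level in WT 3 thus exceeded every Lyso library, and the main test did not call it. Ifih1, which encodes MDA5, had 7.92, 7.18 and 46.3 CPM in WT and 80, 86.3 and 83.9 CPM in Lyso, and Dhx58, which encodes their regulator LGP2, had 2.83, 2.11 and 30.6 CPM in WT and 33.9, 39.9 and 37.8 CPM in Lyso.

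All 4 members of the PARP group rose. Parp14, a mono-ADP-ribosyltransferase (ENSMUSG00000034422, chr16:35832874-35871544), had 7.92, 1.69 and 40.4 CPM in WT, 12.6, 3.41 and 21.6 CPM in the relapsed lines, 389, 442 and 449 CPM in Lyso and 16.3, 22.9 and 60.7 CPM in Tumor. The Lyso libraries were far above every other library, with a log2 fold change of 4.35 (SE 0.79, edgeR adjusted p = 0.00715). Parp9 had 9.06, 10.6 and 64.6 CPM in WT and 225, 294 and 287 CPM in Lyso (log2 fold change 3.03, SE 0.59, edgeR adjusted p = 0.0107), and its partner Dtx3l, a ubiquitin ligase, had 9.06, 8.44 and 34.3 CPM in WT and 177, 193 and 191 CPM in Lyso (3.18, SE 0.5, edgeR adjusted p = 0.00295). Parp9 and Dtx3l lie head to head on chromosome 16 and share 9.4% and 8% of their exonic bases on opposite strands, so part of their reads may not be told apart. Parp12 reached 344, 369 and 368 CPM in Lyso from 17.5, 40.5 and 155 CPM.

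In the ISG15 pathway the conjugating enzymes rose and the modifier did not pass the test. Ube2l6, the E2 enzyme for ISG15, had 6.79, 10.1 and 24.4 CPM in WT, 8.91, 5.33 and 13.7 CPM in the relapsed lines, 101, 110 and 114 CPM in Lyso and 13.7, 22.7 and 49.7 CPM in Tumor. Herc6, the mouse E3 ligase for ISG15 (ENSMUSG00000029798, chr6:57581000-57664632), had 25.5, 21.1 and 37.6 CPM in WT, 26.3, 21.6 and 27.3 CPM in the relapsed lines, 118, 134 and 138 CPM in Lyso and 13.7, 19.9 and 39.3 CPM in Tumor. Both were higher in each Lyso library than in any WT library, with log2 fold changes of 2.74 (SE 0.47, edgeR adjusted p = 0.00531) and 2.15 (SE 0.3, edgeR adjusted p = 0.00114). Of the exonic bases of Herc6, 13.66% overlap Gm45193 on the same strand. Isg15 itself had 5.09, 3.8 and 48 CPM in WT, 9.6, 1.5 and 11.1 CPM in the relapsed lines, 39.2, 48.4 and 53.9 CPM in Lyso and 13, 10.3 and 15.8 CPM in Tumor. WT 3 lay within the range of the Lyso libraries for Isg15 and above it for Usp18, the deconjugating protease, which had 26.6, 30 and 36 CPM in Lyso.

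Of the 6 oligoadenylate synthetase genes, whose catalytic members sense double-stranded RNA and activate RNase L, Oasl2 alone was called in Lyso. Oasl2 (ENSMUSG00000029561, chr5:114896936-114912234) had 0, 0 and 10.4 CPM in WT, 2.76, 0.359 and 4.55 CPM in the relapsed lines, 105, 95.4 and 94.8 CPM in Lyso and 10.1, 13.9 and 35.5 CPM in Tumor. The log2 fold change was 4.03 (SE 0.78, edgeR adjusted p = 0.0102). The other members were low, between 0.729 CPM (Oas3) and 15 CPM (Oas1a) in single Lyso libraries. Oas1a and Oas1g are near-identical in parts of their sequence, as are members of the Ifit and Ifitm families, so how their reads were divided is uncertain.

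The IFIT genes, which encode binders of viral RNA ends, did not pass both thresholds. Ifit3 had 2.83, 4.22 and 61 CPM in WT, 17.2, 2.34 and 14.3 CPM in the relapsed lines, 196, 240 and 249 CPM in Lyso and 6.83, 11.9 and 27.8 CPM in Tumor. Every Lyso library was above every WT library, and the log2 fold change was 3 (SE 0.81, edgeR adjusted p = 0.0539). Ifit1 had 7.92, 4.64 and 48.2 CPM in WT and 131, 133 and 145 CPM in Lyso. Ifit2, which varied little within WT, passed the p threshold (edgeR adjusted p = 0.0195) with a log2 fold change of 0.74.

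The restriction factors were mixed, with 2 of 11 called. Adar, the RNA-editing enzyme, had 78.1, 60.4 and 157 CPM in WT and 213, 218 and 219 CPM in Lyso, and Znfx1, a sensor helicase at mitochondria, had 43.6, 33.4 and 76.4 CPM in WT and 182, 179 and 183 CPM in Lyso (log2 fold change 1.77, SE 0.33, edgeR adjusted p = 0.00804). The exons of Adar overlap Chrnb2 on the other strand over 16.81% of their bases. Rsad2, which encodes viperin, had 18.7, 5.91 and 97.2 CPM in WT and 157, 202 and 219 CPM in Lyso. Its neighbour Cmpk2, a nucleotide kinase, had 1.7, 4.64 and 40.1 CPM in WT and 81.6, 83.6 and 81.6 CPM in Lyso. Mx2, a dynamin-like GTPase that the annotation used here lists as a polymorphic pseudogene, had 0.566, 0.422 and 10.8 CPM in WT and 20.6, 21.9 and 22 CPM in Lyso. Samd9l, an inhibitor of translation, had 34, 27 and 107 CPM in WT and 190, 214 and 210 CPM in Lyso. None of these 4 was called, although in each the Lyso libraries lay above the WT libraries. Bst2, the tether that holds budding virions, had 32.3, 14.8 and 125 CPM in WT and 79.1, 80.1 and 85.8 CPM in Lyso, with WT 3 the highest of the 6 libraries, and Ifitm3, which blocks fusion in endosomes, had 39.6, 28.7 and 193 CPM in WT and 232, 155 and 156 CPM in Lyso. Ifitm2, its neighbour on chromosome 7, had 61.1, 44.3 and 53.3 CPM in WT and 105, 51.9 and 59.8 CPM in Lyso, and 40.92% of its exonic bases overlap Gm45717 on the same strand. The groups overlapped for Bst2, Ifitm3 and Ifitm2.

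In the remaining groups Trim21, an antibody receptor and ubiquitin ligase, Pml, the scaffold of nuclear bodies, and Tor3a, a torsin ATPase, were called. Trim21 had 3.96, 5.07 and 27.7 CPM in WT and 81.7, 88.2 and 91.4 CPM in Lyso. Pml had 28.9, 51.5 and 92.1 CPM in WT and 148, 136 and 132 CPM in Lyso. Tor3a had 27.2, 19 and 41.5 CPM in WT and 84.5, 85.2 and 96.5 CPM in Lyso (log2 fold change 1.53, SE 0.28, edgeR adjusted p = 0.0085). Rtp4 had 0.566, 1.27 and 56.4 CPM in WT and 91.5, 85.6 and 86.4 CPM in Lyso, Xaf1 had 2.26, 1.69 and 44.5 CPM in WT and 73.8, 81.6 and 74.2 CPM in Lyso, and Ifi35, a leucine-zipper protein, had 11.9, 8.02 and 56.4 CPM in WT and 79.2, 88.4 and 92.6 CPM in Lyso, each with all Lyso libraries above all WT libraries but without passing the test. Overlap with another gene covers 13.89% of the exonic bases of Rtp4 on the same strand and 16.79% of those of Ifi35 on the opposite strand. Helz2, a nuclear helicase, had 20.4, 7.6 and 37.2 CPM in WT and 76, 82.6 and 74.7 CPM in Lyso, and Trim25, the ligase that activates RIG-I, had 22.1, 14.4 and 78.8 CPM in WT and 131, 137 and 137 CPM in Lyso. Trim30a had 1.7, 1.27 and 11.9 CPM in WT and 29.5, 30.1 and 32.8 CPM in Lyso. These 3 did not pass it either. Ifi27 and Lgals3bp were lower in Lyso than in WT 3. Ifi27, a mitochondrial interferon-induced protein, had 49.8, 25.3 and 182 CPM in WT, 63.6, 21.3 and 148 CPM in the relapsed lines, 68.4, 66.4 and 66.4 CPM in Lyso and 60.5, 71.1 and 106 CPM in Tumor. Lgals3bp, a secreted galectin ligand, had 108, 79.8 and 507 CPM in WT and 445, 367 and 383 CPM in Lyso. With Ddx58, Usp18, Bst2 and Isg20, an exonuclease, these made 6 genes in which WT 3 exceeded every Lyso library, a share of 12.8% beside 35.5% of all genes. Per kilobase of exon, which allows levels of different genes to be set side by side, Ifitm3 (266 CPM per kb), Lgals3bp (140) and Ifit3 (131) had the highest means in Lyso.

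The choice of control decided how much of this response was visible. Against WT 1 and WT 2 alone, 34 genes were called higher in Lyso (1.8% of all genes) and 0 lower (0.325%), and the median log2 fold change over the 47 genes was 3.61, or 3.48 with the genes unseen in both controls set to their lower bound. Against WT 3 alone, with the spread taken from the other groups on the assumption that WT 3 varies like them, Zbp1 and Herc6 were called higher (1.08% of all genes), 0 genes were called lower (0.547%) and the median was 0.98. The direction held more often than the call did, since 39 of the 47 fold changes against WT 3 were still above 0. With 1 library left out in turn, 9 genes kept their call in all 6 fits: Zbp1, Herc6, Dtx3l, Ube2l6, Parp14, Znfx1, Tor3a, Oasl2 and Parp9. The other 6 (Tlr3, Trim21, Adar, Pml, Parp12 and Eif2ak2) were called in 1 or 2 of the 6, and leaving out Lyso 1, Lyso 2, Lyso 3 or WT 2 each left 9 calls.

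**Figure D3:**
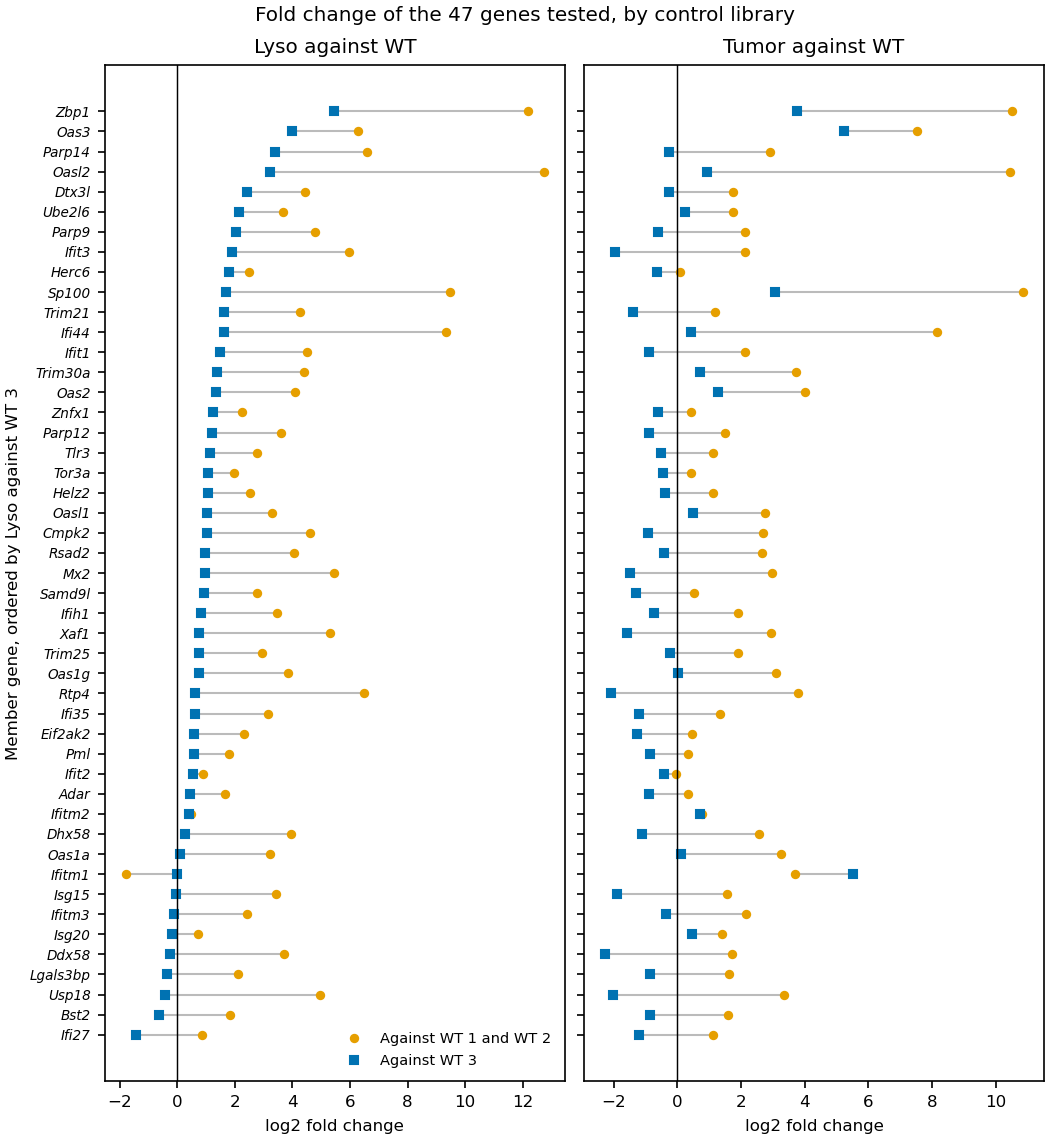
Each row is 1 of the 47 genes tested, and points give the log2 fold change (horizontal axis) of Lyso (left) and Tumor (right) against WT 1 and WT 2 (circles) or against WT 3 (squares). Medians were 3.61 and 0.98 in Lyso and 1.91 and -0.60 in Tumor, so that most squares in the right panel lie left of 0. Circles of genes unseen in WT 1 and WT 2 (Zbp1, Oas3, Oasl2, Sp100 and Ifi44) depend on the prior count.

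In cells sorted from relapsed tumors only 4 genes were called higher than in WT: Zbp1, Ifitm1, Oas3 and Sp100, with 0 lower. In this comparison 8.56% of all genes were called higher and 2.2% lower, so the share of the 47 genes was near the background. The median log2 fold change of the 47 genes was 0.19. At an unadjusted p under 0.05 in either direction stood 7 genes, and DESeq2 called 6 higher and 0 lower, again without a share of all genes to set them against. The 3 Tumor libraries lay above the 3 WT libraries in 7 genes (21% of all genes), namely the 4 called, Oas2, Ifitm2 and Isg20.
Zbp1, whose values are given above, had a log2 fold change of 4.22 (SE 0.7, edgeR adjusted p = 0.00121), and its call survived every library left out. Sp100, a component of the PML nuclear bodies (ENSMUSG00000026222, chr1:85649988-85709998), had 0, 0 and 3.18 CPM in WT, 11.9, 0.779 and 16.8 CPM in the relapsed lines, 9.62, 12.9 and 8.34 CPM in Lyso and 12.4, 21.3 and 45.9 CPM in Tumor. Mouse chromosome 1 also carries repeated relatives of this gene, so its count is uncertain. Tumor 4 was the highest, and ITF1 and Rel also exceeded all WT libraries. The log2 fold change was 3.69 (SE 0.98, edgeR adjusted p = 0.0195), and the call was lost without Tumor 4 (log2 fold change 3.07) or without WT 2 (3.4).
Oas3 (ENSMUSG00000032661, chr5:120753098-120777661) rested on few counts, with 0.975, 1.21 and 5.65 CPM in Tumor and 0, 0 and 0.059 CPM in WT. Over the groups these were 33 counts against 1, a depth-scaled ratio of 56.6 (exact 95% interval 9.48 to 2303, edgeR adjusted p = 0.00769). Such exact intervals, here and below, pool the counts of a group. They cover counting error only and leave out the spread between libraries. Ifitm1, an IFITM of the plasma membrane (ENSMUSG00000025491, chr7:140967221-140969825), had 0, 0.422 and 0.059 CPM in WT, 0, 0.0599 and 0.0669 CPM in the relapsed lines, 0.189, 0 and 0 CPM in Lyso and 3.9, 4.43 and 1.41 CPM in Tumor. It was at or near 0 in every cultured library, Lyso included, and present in all 3 Tumor libraries, with 40 counts against 2 in WT (ratio 34.3, exact 95% interval 8.9 to 293, edgeR adjusted p = 0.00249). Only its Tumor levels carried Ifitm1 past the expression filter. Its selection therefore favoured a call in Tumor, here and against the lines and Lyso below. Both genes lost their call without WT 3, with log2 fold changes of 7.53 for Oas3 and 3.68 for Ifitm1.

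**Figure D4:**
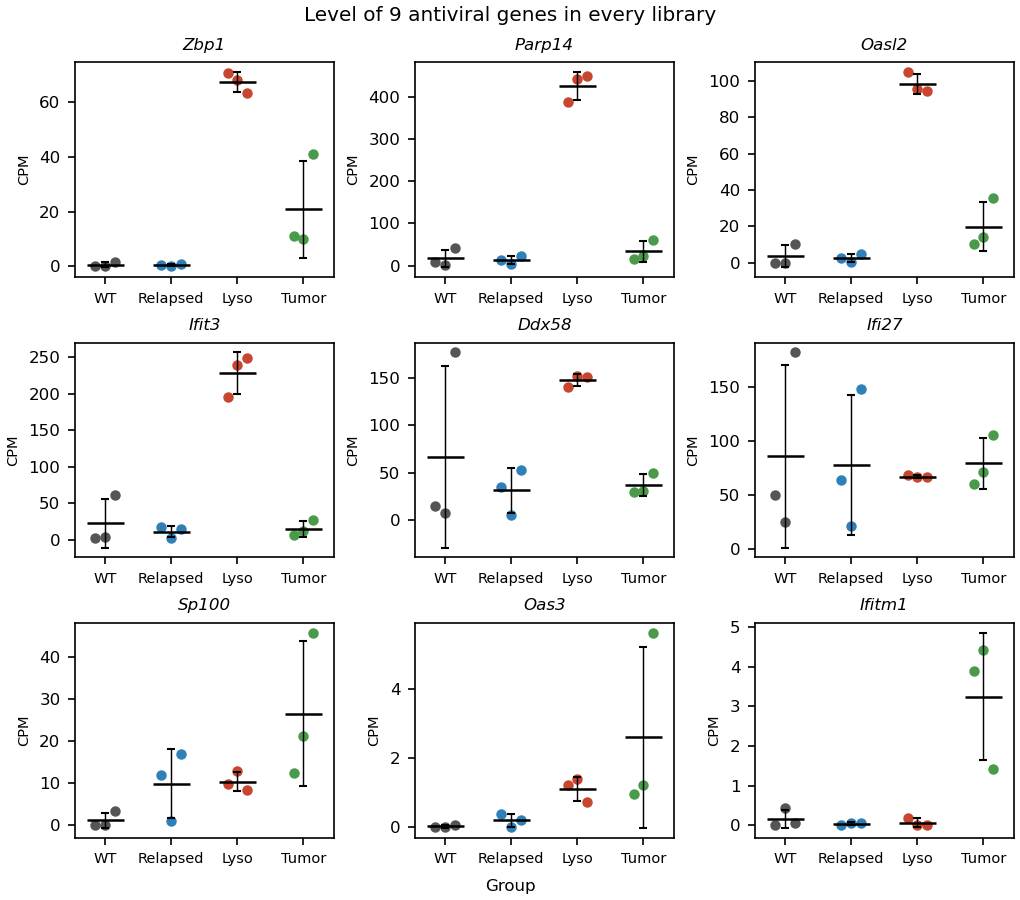
Points are the CPM (vertical axis, linear, scaled for each gene) of 9 genes in the 3 libraries of each group (horizontal axis), with the mean as a line and the SD as a bar. The highest points of Zbp1, Parp14, Oasl2 and Ifit3 are in Lyso, those of Ddx58 and Ifi27 are WT 3, and those of Sp100, Oas3 and Ifitm1 are in Tumor.

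Where the Tumor libraries stood depended on which WT library they were set against. All 3 exceeded both WT 1 and WT 2 in 39 of the 47 genes (25.2% of all genes), whereas WT 3 exceeded all 3 in 25 (35.7% of all genes) and lay below all 3 in 7 (36.9%). Against WT 1 and WT 2, 13 genes were called higher (6.2% of all genes) and 0 lower (1.37%), with a median log2 fold change of 1.91, or 1.90 with unseen genes at their bound. Among them were Oasl2, Oas1a and Oas2 of the OAS family, Rsad2, Cmpk2, Trim25, Trim30a, Ifitm3 and Parp9. Against WT 3 the median was -0.60, with 14 of 47 fold changes above 0. Then Zbp1, Oas3, Ifitm1 and Epsti1 were called higher (7.53% of all genes) and Ddx58 and Eif2ak2 lower (2.36%), with the spread again borrowed from other groups. Epsti1, the 1 gene that did not pass the expression filter of the main fit, had 0.65, 1.21 and 2.35 CPM in Tumor and 0 counts in WT, at least 10.3-fold higher by the floor over the WT group.
The Tumor libraries also differed among themselves. Tumor 4 was the highest of the 3 in 44 of the 47 genes, beside 33.9% of all genes, and exceeded Tumor 1 by over 1 on the log2 CPM scale in 22 (4.52% of all genes) and Tumor 3 in 19 (3.24%), and fell short of Tumor 3 by over 1 in 1, Ifitm1 (2.81%). Ifitm1, Ifitm2 and Isg20 were the exceptions to the order. Zbp1 had 41.2 CPM in Tumor 4 against 11.1 and 10.1 CPM, and Bst2 109 CPM against 44.2 and 55 CPM. Myeloid markers summed to 49.4, 64.4 and 79.1 CPM in Tumor 1, 3 and 4, against 12.5 to 29.2 CPM in WT, and T-cell markers to 4.23, 3.62 and 10.4 CPM. Fibroblast markers ran the other way within Tumor, with 10710, 8745 and 7707 CPM, and endothelial markers summed to 54.4 to 59.8 CPM against 13.5 to 24.9 CPM in WT. The part of these cells in the Tumor values was not tested.

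The cultured relapsed lines showed 0 calls in either direction against WT, where 0.0134% of all genes were called higher and 0.0268% lower, and DESeq2 also gave 0 and 0. At an unadjusted p under 0.05 stood 9 of the 47, 8 of them with lower means in the lines (Isg20, Rtp4, Tor3a, Adar, Oas2, Helz2, Isg15 and Mx2) and Sp100 with a higher one. The median log2 fold change was -0.66, but it turned with the control. Against WT 1 and WT 2 it was 1.05 (0.94 with unseen genes at their bound), with 42 of 47 above 0, and against WT 3 it was -1.43, with 4 of 47 above 0. Of the 8 genes with lower means, Rtp4, Mx2, Isg15 and Oas2 had log2 fold changes of 2.1, 1.9, 0.73 and 0.4 against WT 1 and WT 2. In 0 of the 47 did the lines lie above all WT libraries (6.43% of all genes) or below them (4.19%). For Isg15 the means were 7.4 ± 5.17 CPM (SD, n = 3) in the lines and 19 ± 25.2 CPM (SD, n = 3) in WT, a difference within the spread of WT. Again the sides of the WT split gave different pictures. WT 3 exceeded all 3 lines in 39 genes (21.5% of all genes), while Rel exceeded both WT 1 and WT 2 in 41 (33.6%). Against WT 3 alone, 1 gene, Adar, was called lower (0.0995% of all genes) and 0 higher (0.0187%), and against WT 1 and WT 2, 0 were called in either direction (0% of all genes in both).
The lines differed from each other in a common order. ITM was the lowest of the 3 in 45 of the 47 genes (38% of all genes), and ITF1 in the other 2, Ifit2 and Ifitm1 (31.7%), and Rel was the highest in 37 (32.3%), with ITF1 highest in the other 10 (33.8%). Rel exceeded ITM by over 1 on the log2 CPM scale in 38 genes, where 5.79% of all genes did so, with a median of 1.72. ITF1 exceeded ITM by over 1 in 28 (7.42%) and fell short of it by as much in 0 (3.56%), while Rel exceeded ITF1 by over 1 in 8 (4.27%). Sp100, Usp18, Xaf1, Rtp4 and Ddx58 showed the widest gaps between Rel and ITM. Usp18 had 4.99, 0.959 and 17.4 CPM and Ddx58 35.2, 5.93 and 53.2 CPM in ITF1, ITM and Rel, and Ifi27 had 63.6, 21.3 and 148 CPM. Each line is 1 library, so that a line and its culture cannot be told apart. Myeloid markers summed to 46.8, 12.5 and 14.7 CPM in ITF1, ITM and Rel, with Cd68 alone at 34.9, 2.34 and 5.82 CPM. Lyz2, with 2.15, 0.18 and 0.669 CPM, was also lowest in ITM, but Csf1r, with 9.75, 9.53 and 7.97 CPM, was lowest in Rel. Ptprc had 1, 6 and 0 counts and Cd14 0, 1 and 3 counts. Itgam, Adgre1, C1qa, C1qb and Tyrobp were at 0 in all lines. Gene counts were highest in ITM. The part of such cells or of depth in the order was not tested.

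**Figure D5:**
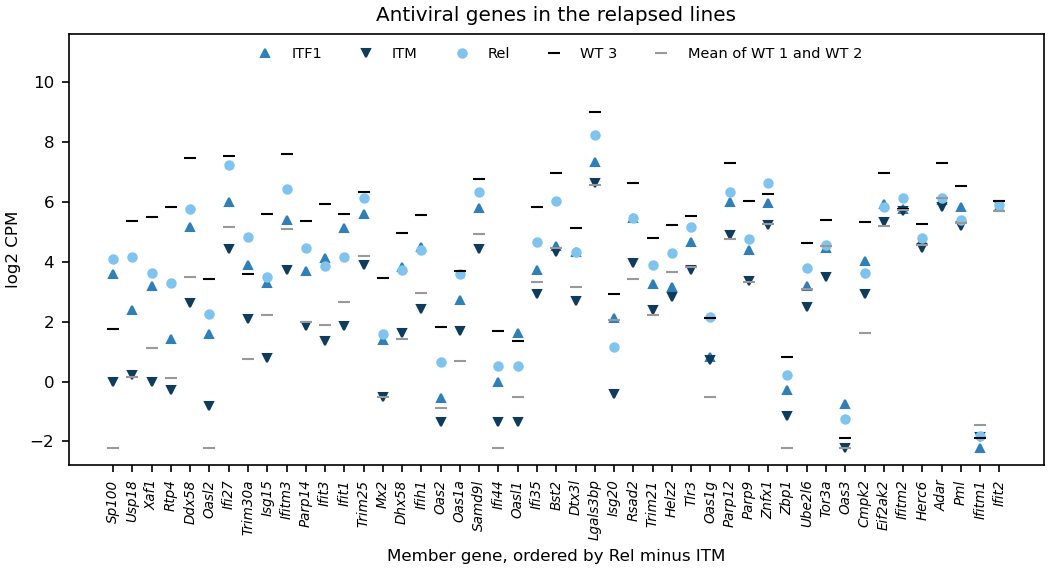
Symbols give the log2 CPM (vertical axis) of the 47 genes tested in ITF1, ITM and Rel, with dashes for WT 3 and for the mean of WT 1 and WT 2, and genes are ordered by the gap between Rel and ITM (horizontal axis). ITM is the lowest line in 45 genes, and WT 3 is above all lines in 39.

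Between sorted tumor cells and relapsed lines, 8 genes were called higher in Tumor (8.36% of all genes) and 0 lower (2.31%). At an unadjusted p under 0.05 in either direction stood 12, and DESeq2 called 9 higher and 0 lower. The Tumor libraries lay above all lines in 13 genes (20.1% of all genes). The OAS family led with 3 of 6. Oas2 had 1.13, 0 and 3.3 CPM in WT, 0.461, 0.18 and 1.34 CPM in the relapsed lines, 9.05, 10.3 and 6.24 CPM in Lyso and 6.18, 5.84 and 12 CPM in Tumor, so that each Tumor library was above each line (log2 fold change 3.59, SE 0.66, edgeR adjusted p = 0.00196). Oas3 rose by 3.77 (SE 0.81, edgeR adjusted p = 0.00528) and Oasl2 by 2.99 (SE 0.79, edgeR adjusted p = 0.0181) on the log2 scale. Zbp1 rose by 5.12 (SE 0.64, edgeR adjusted p = 0.000107), and Ifitm1 had 40 counts against 2 (ratio 72.6, exact 95% interval 18.8 to 620, edgeR adjusted p = 0.000196). Isg20, a 3′ exonuclease, had 12.7, 9.06 and 9.42 CPM in Tumor and 4.15, 0.539 and 2.01 CPM in the lines (log2 fold change 2.23, SE 0.51, edgeR adjusted p = 0.00768). Ube2l6 (1.64, SE 0.47, edgeR adjusted p = 0.026) and Ifi44 (2.5, SE 0.76, edgeR adjusted p = 0.0354), a cytoplasmic interferon-induced protein, were less stable. Without Tumor 4 only 4 calls remained, as Oas3, Oasl2, Ube2l6 and Ifi44 were lost, while without ITF1 or without ITM Ube2l6 and Ifi44 lost theirs, and Ifi44 also lost it without Tumor 1.

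The comparisons with WT share the WT libraries and those of Tumor share the Tumor libraries, so they are not independent of each other. Against Lyso, 22 genes were called lower in Tumor (4.14% of all genes) and 1, Ifitm1, higher (8.78%). The median log2 fold change was -1.58, where that of all genes was 0.00. The Tumor libraries lay below all Lyso libraries in 34 genes (26.8% of all genes) and above them in 2, Ifitm1 and Isg20 (28%). Among the genes called lower, Ifit3 differed most, by -3.85 (SE 0.87, edgeR adjusted p = 0.00605), followed by Parp14 with -3.67 (SE 0.76, edgeR adjusted p = 0.00357) and Trim21 with -3.06 (SE 0.59, edgeR adjusted p = 0.00224). Ifitm1 had 40 counts in Tumor against 2 in Lyso (ratio 54.8, exact 95% interval 14.2 to 468, edgeR adjusted p = 0.000353). All 4 PARP genes, 2 of 3 IFIT genes, Herc6 and Ube2l6 of the ISG15 pathway and Tlr3, Zbp1 and Eif2ak2 among the sensors were called lower. By contrast, 1 of the 6 OAS genes was called lower, Oasl2. Oas1a had 12.4, 11.3 and 17.7 CPM in Tumor and 10.9, 15 and 14.3 CPM in Lyso, and Sp100 had a higher mean in Tumor, 26.5 ± 17.4 CPM (SD, n = 3) against 10.3 ± 2.38 CPM (SD, n = 3) (log2 fold change 1.38, SE 0.77, edgeR adjusted p = 0.22). DESeq2 called 14 lower, as did the fits without Tumor 1 or without Tumor 3. Depth moves with the groups here, since each Lyso library was deeper than each Tumor library.

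The other genes of the interferon pathway were followed from lists of the same kind. Of 10 interferon ligands, 6 had no count in any library, and the highest count of any was 5, for Ifng in Lyso 3, so none passed the filter. Of the 6 receptor genes, 0 were called in Lyso, Tumor or the relapsed lines against WT. Stat2, a signal transducer of type I interferon, rose in Lyso from 16.4, 8.44 and 28.1 to 200, 203 and 198 CPM (log2 fold change 3.35, SE 0.44, edgeR adjusted p = 0.000843). Irf9, a DNA-binding partner in the response, and Irf7, a transcription factor of interferon genes, showed the split of the module, with 7.92, 4.64 and 56 CPM and 0, 1.27 and 18.1 CPM in WT. Of 9 genes that lead to interferon production, Tmem173, which encodes STING, and Myd88, an adaptor of Toll-like receptors, rose in Lyso, by 1.51 (SE 0.18, edgeR adjusted p = 0.00055) and 1.39 (SE 0.15, edgeR adjusted p = 0.000345) on the log2 scale.
For comparison, 11 genes known to respond strongly to interferon gamma were followed. All 11 were called higher in Lyso (2.43% of all genes), with a median log2 fold change of 5.59. In Tumor 8 of 11 were called higher (8.56% of all genes), with a median of 2.99. Irf1, a transcription factor, had 4.53, 8.02 and 17.9 CPM in WT, 17.2, 12.1 and 17.5 CPM in the relapsed lines, 658, 746 and 758 CPM in Lyso and 35.4, 64.6 and 173 CPM in Tumor. Cxcl9, a chemokine, had 0, 0 and 0.059 CPM in WT, 2.83, 3.17 and 2.67 CPM in Lyso and 17.9, 22.9 and 48 CPM in Tumor. Against WT 3 alone, the median log2 fold change in Lyso was 5.08 for the 11 genes and 0.98 for the 47 antiviral genes tested. Against WT 1 and WT 2, 8 of the 11 were called higher in Lyso, beside 34 of the 48 antiviral genes and 1.8% of all genes. The medians were then 6.91 and 3.61. In Tumor the medians were 2.39 and -0.60 against WT 3, and 4.33 and 1.91 against WT 1 and WT 2. Among the 11 genes, Cxcl9, Psmb8 and Ciita had 0 counts in WT 1 and WT 2. Their fold changes against that control depend on the prior count, and the medians of 6.91 and 4.33 were not taken with them at a lower bound. The gap between the lists is uncertain to that extent.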

How the data were processed

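RNA of 12 libraries (3 per group) was extracted with NucleoSpin RNA and prepared with the INCPM mRNA Seq kit. The authors deposited raw counts of reads per gene. Per the labels, fastp 0.19.6, STAR 2.7.1a and DESeq2 1.24.0 were used on GRCm38. The strand setting and annotation release are not given in the sources used here. Of all reads in the table, 36.17% to 39.36% per library were on genes. The 4 rows that name no gene were left out of library sizes and tests.

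Counts were fitted in edgeR 4.0.16 (R 4.3.3) over all 12 libraries with TMM scaling, filterByExpr and the quasi-likelihood test, which kept 14924 of 54232 genes and 47 of the 48 described. A gene was called at a Benjamini-Hochberg adjusted p under 0.05 over all genes tested and an absolute log2 fold change over 1. Full statistics are given for the 10 called genes of smallest p per comparison. Levels are CPM, and log2 CPM had a prior count of 2. DESeq2 1.42.0, other filters, scalings and controls, a replicate block and leaving out each library were alternatives. Symbols and positions came from GENCODE vM21. The fit was tested on simulated data. Members, gene lists and tests were chosen with earlier results of these data known. Nothing in the labels says that the libraries of WT or Lyso came from separate cultures, so p-values measure the spread between libraries, which may be technical. Lyso 2 and Lyso 3 differed by more than sampling noise (chi-square per degree of freedom 1.55, against 3.64 to 67.16 in other pairs of a group) and were kept as separate libraries.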

Additional observations from a re-analysis of the deposited data

How the results depend on the processing

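For genes higher in Lyso than in WT (15), WT 1 and WT 2 only gave 34, WT 3 only, the WT library of similar depth, gave 2, no filter on low counts gave 35, and leaving out 1 library gave 9 to 34, the highest without WT 3 and the lowest without Lyso 1, Lyso 2, Lyso 3 or WT 2. For genes higher in Tumor than in WT (4), the WT libraries of similar depth, WT 1 and WT 2, gave 13, requiring 10 counts in each library of a comparison gave 0, no filter gave 8, a fit of only the compared groups gave 2, and leaving out 1 library gave 3 (without Tumor 4) to 13 (without WT 3). For genes lower in Tumor than in WT (0), WT 3 only gave 2 and no filter gave 1. The relapsed lines against WT (0 in both directions) gave 1 higher and 8 lower with no filter and 1 lower against WT 3, the WT library of similar depth. For Tumor above the relapsed lines (8), the minimum of 10 counts gave 1, no filter 16 and leaving out 1 library 4 (without Tumor 4) to 11 (without Rel). For Tumor above Lyso (1), the minimum gave 0, no filter 3, the compared groups only 2 and leaving out 1 library 1 to 2, the latter without Tumor 1 or Lyso 3. For Tumor below Lyso (22), DESeq2 gave 14 and leaving out 1 library 14 to 22, the lowest without Tumor 1 or Tumor 3. The fits of Lyso and the relapsed lines on WT 1 and WT 2 only, and of Tumor on WT 3 only, were chosen after seeing the data. The cause of these changes was not tested. Apart from the main fit and the fits by control, no share of all genes called is given for these settings. A change in the genes described therefore cannot be told from a change across all genes. For the called genes of smallest p, at most 10 per comparison, 381 results kept their call, 34 lost it and 0 reversed. Other called genes were not in this count. In Lyso these were Trim21, Adar, Pml, Parp12 and Eif2ak2, which kept their call in few of the fits with 1 library left out. Scaling by library size only moved the median of all genes in Lyso against WT to -0.102 and left 11 genes called.

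The replicate numbers share only a number, since samples with the same number did not deviate together (r from -0.008 to 0.065). With the replicate block, the counts were 23 for Lyso above WT, 2 for Tumor above WT, 0 for Tumor above Lyso and 26 for Tumor below Lyso. No share of all genes is given for these counts either. The labels give the relapsed lines names and no replicate numbers, so no block was fitted for them.

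Low depth limits WT 1 and WT 2 most, where 3 counts stand for 1.8 and 1.28 CPM. Differences in Oas3, Ifitm1, Epsti1 and other genes near that level rest on few counts there and may go uncalled.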
